A study of Mus musculus with 4 samples.

Results

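Matrix metalloproteinases (MMPs) and the tissue inhibitors that block them (TIMPs) were followed in single cells of mouse aorta as 10 genes chosen by symbol, namely Mmp2, Mmp3, Mmp12, Mmp13, Mmp14, Mmp19, Timp1, Timp2, Timp3 and Adamts1, among 32285 measured features. Each symbol named 1 feature. The study profiled 4 groups with 1 library each, by droplet sequencing of the 3' ends of transcripts. WT and LysM-DKO mice were kept on normal diet, and WT/ApoE-/- and LysM-DKO/ApoE-/- mice on western diet, and 4 values in a row below follow this order. Both western diet groups carry the ApoE null alleles, which sensitise mice to atherosclerosis, and neither normal diet group does. The labels do not spell out which genes the double knockout removes, although the series title concerns epsins. LysM is a name of the lysozyme locus, Lyz2, and mouse lines named after it commonly delete genes in myeloid cells only, although the labels do not name a Cre line. Age and the number of mice pooled in a library are not given in the sources used here. All 4 aortas were digested for 90 min with collagenase I, collagenase IV and liberase at 5 mg/mL each.

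A unique molecular identifier (UMI) marks 1 captured transcript. A minimum of 1000 UMIs and a maximum of 10% from mitochondrial genes per barcode left 7758, 8230, 13744 and 8133 barcodes with medians of 4167, 3404, 2103 and 6761 UMIs. Each barcode took the first class whose rule it met: macrophage (C1qa, C1qb and C1qc summing to at least 5 UMIs), endothelial (Pecam1 and Cdh5, at least 2), a class read from Col2a1, Cytl1 and Ibsp (at least 5), fibroblast (Pdgfra and Serpinf1, at least 3) and smooth muscle (Myh11 and Cnn1, at least 3). These held 92, 208, 939 and 135 macrophage barcodes, 798, 981, 426 and 417 endothelial, 65, 103, 1106 and 213 of the Col2a1/Cytl1/Ibsp class, 597, 715, 539 and 536 fibroblast, and 4545, 4571, 8297 and 6602 smooth muscle. Markers that the rules did not use stood above the other barcodes of every library for 8 of 8 macrophage, 7 of 7 endothelial, 8 of 8 fibroblast and 8 of 8 smooth muscle genes. For 8 chondrocyte markers in the Col2a1/Cytl1/Ibsp class this held for 8 in both western diet libraries but for 3 and 7 on normal diet, where Col2a1 itself had 0 and 41 UMIs, so a chondrocyte name goes against the normal diet data and the class is called here by its rule genes. Levels, abbreviated CPM, are UMIs of a gene per 1000000 summed UMIs of a class in a library. The endothelial class also carried smooth muscle transcripts. Its 7 endothelial markers summed to 813, 1090, 280 and 461 CPM, and the 8 smooth muscle markers in it to 22489, 17244, 16421 and 21662 CPM. Of these 8, 7, 5, 0 and 0 stood above the other barcodes. Levels in this class are therefore not read as those of endothelial cells alone.

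With 1 library per group no difference between groups has a replicate check, and no test was possible. Intervals are 95% limits from counting UMIs only. Apoe in macrophages was at 7012, 5435, 8.44 and 8.55 CPM, which follows the ApoE-/- label. Lyz2 in macrophages was at 3696, 978, 4126 and 798 CPM, lower in both LysM-DKO libraries. Macrophage Epn1, an epsin, was at 81.7, 54.5, 52.4 and 42.8 CPM and Epn2 at 35.6, 33.6, 33.2 and 15.7 CPM, but a 3' tag outside a deleted exon does not check a deletion. Xist, the RNA of the inactive X chromosome, was at 950.3, 949.7, 0.636 and 0.563 CPM and the Y-linked Ddx3y at 0, 0, 117 and 124 CPM, so the diet groups also differed in sex, beside ApoE genotype and the version of the counting software. These cannot be told apart from diet. Between 37.0% and 63.5% of macrophage barcodes and between 77.5% and 92.6% of endothelial barcodes also met the rule of a later class. So did 70.4 to 87.7% of the Col2a1/Cytl1/Ibsp class and 27.6 to 44.1% of fibroblast barcodes. Pairs of libraries shared 9 to 41 kept barcode sequences.

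MMPs are zinc endopeptidases that are made as inactive proenzymes and cut the collagens, elastin and proteoglycans of the extracellular matrix. TIMPs bind the active site of MMPs and thereby set how much of the secreted enzyme can act. In the artery wall these enzymes are known for remodelling of the elastic media and of the fibrous cap of plaques. ADAMTS1 is a related secreted protease that cuts the large proteoglycans versican and aggrecan.

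Mmp13, Mmp12 and Mmp3 lie in 1 cluster of 9 MMP genes on chromosome 9 (GRCm38, 7272514 to 7699585, 427.1 kb, GENCODE M21), within 183.5 kb of each other. The RefSeq promoter table (GRCm38.p6) held windows for 8 of the 10 genes, and the 250 bases before each annotated start were searched on both strands for the AP-1 element TGAGTCA, the letters bound by Fos and Jun dimers, which read as TGACTCA from the opposite strand. It was found once in the windows of Mmp13, Mmp12 and Mmp3, and in none of the windows of Mmp14, Timp1, Timp2, Timp3 and Adamts1. Of all 32851 windows of this length, 4.46% held it. The 3 sequences are shown because these neighbouring genes carry the element at nearly the same distance from the start. All are on the plus strand, 5' to 3', with the element in capitals: chr9:7272264-7272513, chr9:7347124-7347373 (the downstream of 2 annotated Mmp12 starts) and chr9:7445572-7445821.
Mmp13: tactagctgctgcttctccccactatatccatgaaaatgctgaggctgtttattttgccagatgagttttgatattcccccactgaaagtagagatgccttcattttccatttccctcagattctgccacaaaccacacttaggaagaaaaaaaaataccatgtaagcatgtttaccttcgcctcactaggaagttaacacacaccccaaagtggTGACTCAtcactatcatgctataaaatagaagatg
Mmp12: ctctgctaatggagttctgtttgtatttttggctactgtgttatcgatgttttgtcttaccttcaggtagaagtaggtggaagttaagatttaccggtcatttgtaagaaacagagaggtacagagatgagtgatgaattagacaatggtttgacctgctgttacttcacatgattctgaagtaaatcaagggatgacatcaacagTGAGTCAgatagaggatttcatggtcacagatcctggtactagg
Mmp3: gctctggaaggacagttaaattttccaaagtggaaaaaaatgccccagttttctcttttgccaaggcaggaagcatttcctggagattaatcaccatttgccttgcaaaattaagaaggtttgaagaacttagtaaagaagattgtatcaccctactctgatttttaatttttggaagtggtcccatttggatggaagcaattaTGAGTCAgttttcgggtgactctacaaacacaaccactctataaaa
The element began 35 bases before the Mmp13 start, 44 before the Mmp12 start and 46 before the Mmp3 start. Within the last 60 bases before the start, 1.05% of all windows held it. The window of the upstream Mmp12 start held none. A TATAAA stood in the windows of Mmp13, Mmp3 and Adamts1 and in 12.4% of all windows. A match describes the letters only.

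Between genotypes, the western diet libraries differed in more pairs than the normal diet libraries. Of 50 pairs of a gene and a class, 48 had at least 50 UMIs over both libraries, and 23 of these were at least 2-fold lower in LysM-DKO/ApoE-/- than in WT/ApoE-/-, against 0 that were 2-fold higher. Among all genes measured in the same classes 4.59% were 2-fold lower and 2% 2-fold higher. On normal diet 38 pairs were measured, and 6 were at least 2-fold higher in LysM-DKO and 0 lower, where 3.03% of all genes were higher and 0.75% lower. The lower pairs on western diet were 7 of 10 in smooth muscle (background 7.55%), 5 of 9 in endothelial barcodes (2.56%), 4 of 10 in macrophages (6.33%), 4 of 9 in fibroblasts (2.49%) and 3 of 10 in the Col2a1/Cytl1/Ibsp class (2.82%). The 6 higher pairs on normal diet were Mmp12, Mmp13, Mmp14 and Mmp19 in macrophages (4 of 7, background 3.43%) and Mmp19 and Timp1 in fibroblasts (2 of 8, background 1.43%). Of these 6, 0 stayed past 2-fold with at least 50 UMIs once the 5 barcodes highest in the gene were left out of each library. The 4 macrophage pairs then fell under 50 UMIs. The fibroblast ratios were then 0.91 (0.65 to 1.18) for Timp1 and 0.54 (0.05 to 1.07) for Mmp19. Among barcodes that met no other class rule, 1 of the 6 stayed, namely Timp1 in fibroblasts at 1.13 (0.84 to 1.43). Of the 23 lower pairs on western diet, 20 stayed without the 5 highest barcodes and 17 among barcodes that met 1 class rule only.

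Between diets, 29 of 48 pairs were at least 2-fold higher and 2 lower in WT/ApoE-/- on western diet than in WT on normal diet, where 8.75% of all genes were higher and 7.8% lower. The higher pairs were 8 of 10 in macrophages (background 20.1%), 8 of 10 in endothelial barcodes (4.5%), 6 of 10 in smooth muscle (4.59%), 4 of 9 in fibroblasts (7.52%) and 3 of 9 in the Col2a1/Cytl1/Ibsp class (11.5%). Between the LysM-DKO libraries 6 of 38 pairs were higher and 6 lower on western diet, with 4.08% and 8.68% of all genes. The median gene itself moved by over 0.1 on the log2 scale in WT macrophages (0.28), WT fibroblasts (0.16) and LysM-DKO fibroblasts (0.18) between diets. The diet comparisons share libraries with the genotype comparisons, so the 4 sets of counts are not separate evidence.

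**Figure D1:**
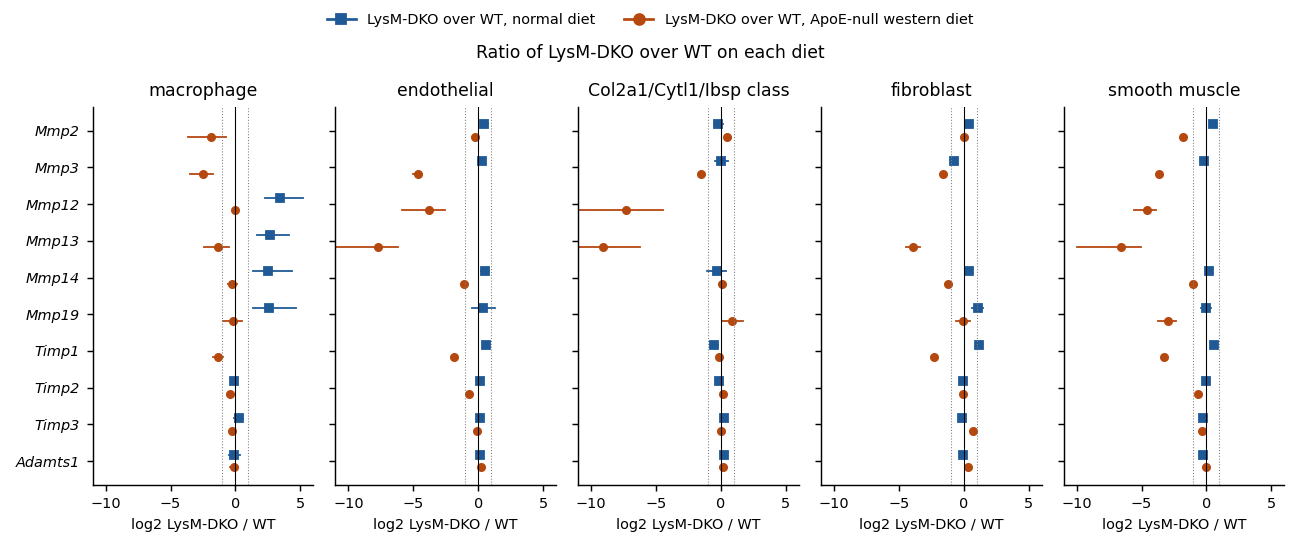
Log2 ratio of LysM-DKO over WT (x axis) for each gene (y axis) in 5 classes, with blue squares for normal diet and brown circles for ApoE-null western diet. Bars are 95% counting intervals, dotted lines mark 2-fold, pairs under 50 UMIs are left out, bars that reach the left edge continue beyond it, and points carry an added 0.5 UMI. Over the 5 classes 23 brown circles lie left of the lower dotted line, while none lies right of the upper one.

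Mmp3 (stromelysin-1, ENSMUSG00000043613, chromosome 9, 7445822 to 7455975, plus strand) cuts proteoglycans and fibronectin and activates other pro-MMPs. Its level was highest in fibroblasts, at 624, 364, 2203 and 742 CPM (1679, 1280, 6558 and 1772 UMIs). The WT/ApoE-/- library stood above the other 3, which lay within 364 to 742 CPM. A ratio below is LysM-DKO relative to WT on the log2 scale unless a diet ratio is named, and brackets after it hold its 95% counting interval. The fibroblast ratio on western diet was -1.57 (-1.65 to -1.49), and on normal diet -0.78 (-0.88 to -0.67). Smooth muscle showed the wider gap, at 17.5, 15.4, 198 and 15.3 CPM, again with only the WT/ApoE-/- library high. Its western diet ratio was -3.69 (-3.81 to -3.58). Endothelial barcodes held 45.4, 54.3, 535 and 20.8 CPM with a western diet ratio of -4.67 (-5.04 to -4.35), although 5 barcodes carried 41.8% of these UMIs in WT/ApoE-/-, and -2.44 was left among barcodes that met no other class rule. The Col2a1/Cytl1/Ibsp class held 157, 159, 571 and 198 CPM. There the western diet ratio of -1.53 (-1.69 to -1.37) was -0.18 among barcodes that met no other rule.

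The fibroblast difference was spread over many barcodes. After each barcode was thinned to 1000 UMIs, 23.6, 14.7, 45.5 and 25.6% of fibroblast barcodes held an Mmp3 UMI (before thinning 35.0, 26.3, 61.4 and 38.8%). Lymphoid barcodes, which should lack the gene and here show the level of free RNA, held it in 1.56, 1.29, 1.98 and 0% after thinning, where 0 of 23 barcodes in the last library allows, by the limit of 3 counts, up to 13.0%. Median depth was 4043, 4147, 3963 and 3652 UMIs in fibroblasts and 3130, 3190, 2074 and 2240 in lymphoid barcodes. Fibroblasts with Pi16 and Dpp4 transcripts (at least 2 UMIs together), the genes of a progenitor-like state of adventitial fibroblasts, held 617, 470.1, 3420 and 952 CPM, and other fibroblasts 628, 304, 1946 and 671 CPM. The western diet ratio was -1.84 (-1.98 to -1.71) in the first and -1.54 (-1.63 to -1.44) in the second, so the gap was present on both sides of this split.

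Mmp13 (collagenase-3, ENSMUSG00000050578, chromosome 9, 7272514 to 7283331, plus strand), a collagenase that cuts fibrillar collagen, was mostly found in the WT/ApoE-/- library, which held 2328 of its UMIs against 26, 122 and 47 in the other 3 in the order above. In fibroblasts the UMIs numbered 0, 1, 596 and 32. The western diet fibroblast ratio was -3.88 (-4.46 to -3.39). Endothelial UMIs numbered 1, 1, 522 and 2 and those of the Col2a1/Cytl1/Ibsp class 0, 1, 783 and 0, the last at least 91.5-fold lower in LysM-DKO/ApoE-/-, with 3 UMIs of the class total as the floor. In smooth muscle the UMIs numbered 16, 8, 161 and 2, a western diet ratio of -6.58 (-9.95 to -5.02).

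These transcripts sat in few barcodes. In WT/ApoE-/-, 22 of 539 fibroblast barcodes (4.08%) held any Mmp13, 1 of them had 188 of the 596 UMIs and 5 held 80.0%. Of those 22 barcodes, 20 also held Mmp3, which 331 of all 539 fibroblast barcodes there held. Barcodes with Mmp3 were deeper, with medians of 4116 against 3472 UMIs. All 596 UMIs were in fibroblasts without Pi16 and Dpp4. In the endothelial class 1 barcode had 312 of 522 UMIs, and among endothelial barcodes that met no other rule the western diet ratio was -0.05 from under 50 UMIs over both libraries. In LysM-DKO/ApoE-/- fibroblasts, 3 barcodes held the 32 UMIs. Macrophages went another way on normal diet, at 14.7, 99.0, 41.2 and 15.7 CPM, with LysM-DKO highest. There, 5 barcodes held 82.6% of the 109 UMIs of the LysM-DKO normal diet library, and the genotype ratio was 2.66 (1.66 to 4.10) on normal and -1.33 (-2.42 to -0.52) on western diet.

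Mmp12 (macrophage elastase, ENSMUSG00000049723, chromosome 9, 7344381 to 7369499, plus strand) degrades elastin and was mostly a macrophage transcript except in WT on normal diet. Macrophages held 14.3, 74.3, 77.2 and 96.1% of its UMIs. Its macrophage level was 10.5, 121, 658 and 637 CPM (5, 133, 2572 and 447 UMIs). Both ApoE-null western diet libraries were high and near each other, LysM-DKO normal diet was in between and WT normal diet was lowest. The western diet genotype ratio was -0.04 (-0.19 to 0.10), whereas WT had a diet ratio of 5.84 (4.75 to 7.60) and LysM-DKO one of 2.39 (2.12 to 2.69). The second was 4.78 (4.07 to 5.68) without the 5 highest barcodes of each library and 4.01 among barcodes that met 1 rule only, so the middle position of the LysM-DKO normal diet library rested on few barcodes. On normal diet the genotype ratio was 3.40 (2.27 to 5.18) from 5 against 133 UMIs, 88.7% of the latter in 5 barcodes, and 1.01 (-0.52 to 3.18) among barcodes that met 1 rule only. After thinning, 1.09, 2.88, 15.0 and 19.3% of macrophage barcodes held an Mmp12 UMI (3.26, 7.21, 24.9 and 35.6% before thinning, at median depths of 4708, 4715, 2796 and 4025 UMIs), and 0.222, 0.215, 0.180 and 0% of lymphoid barcodes.

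Within macrophages on western diet Mmp12 was highest in the foamy ones, defined as Trem2 and Gpnmb summing to at least 3 UMIs, genes of lipid-laden plaque macrophages. On western diet foamy macrophages held 1105 CPM in WT (373 barcodes) and 1046 CPM in LysM-DKO (42 barcodes), a ratio of -0.08 (-0.24 to 0.08). Resident-type macrophages, with Lyve1 and Folr2 but not foamy, held 193 and 0 CPM. Macrophages of neither kind held 130.1 and 385 CPM, higher in LysM-DKO by 1.57 (1.19 to 1.93) on the log2 scale. Foamy barcodes made up 39.7% and 31.1% of macrophages in WT and LysM-DKO. The foamy cutoff moves with depth, and the macrophage medians were 2796 and 4025 UMIs, so the difference between these shares was not read further. Outside macrophages Mmp12 was higher in WT/ApoE-/- than in the other libraries, at 0.185, 1.34, 6.85 and 0.272 CPM in smooth muscle and 0, 0, 42.5 and 0 CPM in the Col2a1/Cytl1/Ibsp class. The summed level of 8 macrophage markers was 67.5, 138, 127 and 16.0 CPM in smooth muscle, also high in the LysM-DKO library on normal diet, and 31.3, 28.1, 244 and 17.5 CPM in the Col2a1/Cytl1/Ibsp class, with none of the 8 at 0 in WT/ApoE-/- in either. Their part in these Mmp12 values was not tested.

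**Figure D2:**
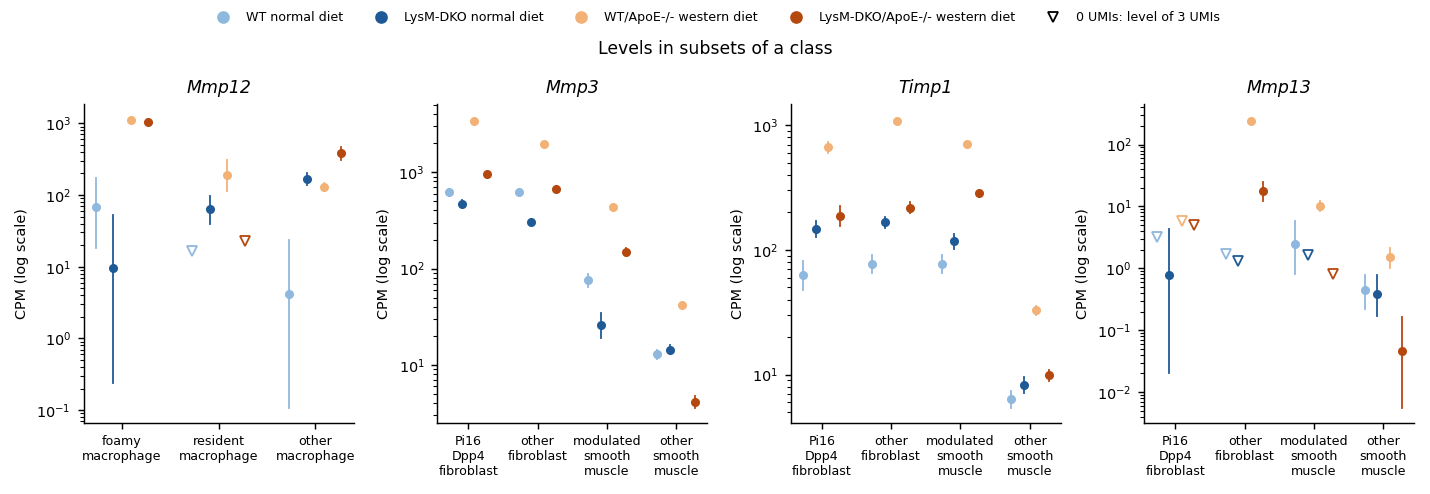
CPM by library (bars are 95% Poisson counting intervals, log axis) of Mmp12 in foamy, resident and other macrophages and of Mmp3, Timp1 and Mmp13 in Pi16 Dpp4 and other fibroblasts and in modulated and other smooth muscle. Mmp12 in foamy macrophages is at 1105 and 1046 CPM in the western diet libraries, while Mmp3 and Timp1 are highest in WT/ApoE-/- in all 4 fibroblast and smooth muscle subsets.

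Mmp2 (gelatinase A, ENSMUSG00000031740, chromosome 8, 92827291 to 92853420, plus strand) cuts gelatin and basement membrane collagen, and its proenzyme is activated at the cell surface by Mmp14 with Timp2 as the bridge. In fibroblasts its level lay within 285 to 435 CPM, at 332, 435, 285 and 296 CPM, with a western diet ratio of 0.05 (-0.09 to 0.20). The Col2a1/Cytl1/Ibsp class held a like range, 334, 289, 265 and 367 CPM. Smooth muscle was much lower, at 11.3, 16.0, 51.6 and 15 CPM with WT/ApoE-/- highest, a ratio of -1.78 (-1.91 to -1.66) on western and 0.50 (0.28 to 0.73) on normal diet. Macrophages held 8.38, 10.9, 28.9 and 7.12 CPM (4, 12, 113 and 5 UMIs) and a western diet ratio of -1.89 (-3.67 to -0.75), with under 50 UMIs left among barcodes that met 1 rule only. The 8 fibroblast markers in macrophages summed to 559, 446, 2701 and 530.1 CPM, high in the same library, and their part was not tested.

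Mmp14 (ENSMUSG00000000957, chromosome 14, 54431612 to 54445364, plus strand), the membrane-type protease MT1-MMP, was present in all 5 classes. In fibroblasts it was at 79.9, 106, 231 and 100 CPM, with only WT/ApoE-/- standing apart and a western diet ratio of -1.20 (-1.42 to -0.99). Smooth muscle had the same shape at a lower level, 24.6, 27.6, 56.1 and 27.6 CPM, and a ratio of -1.03 (-1.13 to -0.92). In endothelial barcodes, at 26.8, 39.3, 113 and 54.1 CPM, the ratio was -1.06 (-1.32 to -0.81), but -0.05 among those that met no other rule. In macrophages Mmp14 was at 10.5, 66.3, 138 and 117 CPM. There the 2 western diet libraries were near each other, with a ratio of -0.24 (-0.60 to 0.09), and on normal diet LysM-DKO was higher by 2.54 (1.38 to 4.33), from 5 against 73 UMIs. Among barcodes that met 1 rule only this ratio was 1.66 (-0.22 to 5.11) from under 50 UMIs, and under 50 UMIs were left without the 5 highest barcodes. On western diet 46.6% of WT macrophage barcodes with an Mmp12 UMI also held Mmp14, against 25.5% of those without, and in LysM-DKO 56.3% against 9.20%. Barcodes with Mmp12 were deeper, with medians of 4717 against 2413 UMIs in WT and 6282 against 3327 in LysM-DKO.

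Mmp19 (ENSMUSG00000025355, chromosome 10, 128790910 to 128800824, plus strand), which cuts basement membrane proteins, was a low transcript, with 235, 423, 443 and 136 UMIs in the 4 libraries. In macrophages it was at 8.38, 56.3, 31.5 and 27.1 CPM, with a genotype ratio of 2.59 (1.32 to 4.67) on normal and -0.18 on western diet. The normal diet value was 1.63 with equal weight for each barcode and 1.86 (0.03 to 5.30) among 1-rule barcodes, the latter from under 50 UMIs, and under 50 UMIs were left without the 5 highest barcodes. In fibroblasts it was at 24.2, 50.9, 23.5 and 22.6 CPM, with LysM-DKO on normal diet the high library by 1.07 (0.66 to 1.51). A single barcode held 66 of the 179 UMIs there, and without the 5 highest barcodes of each library the ratio was 0.54. Smooth muscle held 4.89, 4.83, 3.57 and 0.440 CPM (132, 108, 115 and 21 UMIs), a western diet ratio of -2.99 (-3.77 to -2.34). In that class 1 barcode of WT on normal diet carried 72 of 132 UMIs.

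Adamts1 (ENSMUSG00000022893, chromosome 16, 85793827 to 85803113, minus strand) was lower on western diet in fibroblasts of both genotypes, at 893, 844, 373 and 468 CPM. WT had a diet ratio of -1.26 (-1.36 to -1.16) and LysM-DKO one of -0.85 (-0.95 to -0.75), the second within 2-fold. In the Col2a1/Cytl1/Ibsp class it was at 731, 845, 319 and 363 CPM, with diet ratios of -1.20 in WT and -1.22 in LysM-DKO. Smooth muscle, which held 55.9 to 86.6% of Adamts1 UMIs, did not follow, at 609, 513, 576 and 553 CPM. Genotype ratios of Adamts1 stayed within 2-fold in all 5 classes on both diets. A list of 17 immediate-early and stress genes, which handling of tissue can induce, was read beside it. In fibroblasts 9 of the 17 were at least 2-fold lower on western diet in WT (median log2 ratio -1.07, against 0.16 over all genes), where 5.74% of all genes were lower, and 1 of 17 in LysM-DKO (median -0.34, against 0.18), near the 3.77% of all genes. In smooth muscle 5 of 17 were lower in WT (median -0.57), where 9.67% of all genes were. In LysM-DKO smooth muscle 0 of 17 were lower (median -0.13), beside 16.1% of all genes. In the Col2a1/Cytl1/Ibsp class 5 of 17 were lower in WT (median -0.71), beside 9.17% of all genes. There 0 of 17 were lower in LysM-DKO (median -0.24), beside 3.58% of all genes. Their part in the Adamts1 values was not tested.

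Timp1 (ENSMUSG00000001131, chromosome X, 20870166 to 20874735, plus strand) blocks most secreted MMPs and is the inducible inhibitor of the family. On western diet it was past 2-fold lower in 4 of 5 classes, where Mmp3 was so in 5 of 5, beside 4.59% of all genes in these classes. The 4 libraries held 1011, 1679, 24948 and 4343 Timp1 UMIs. Fibroblasts were at 72.5, 161, 1015 and 211 CPM, WT/ApoE-/- far above the rest, with a genotype ratio of -2.27 (-2.41 to -2.13) on western and 1.15 (0.91 to 1.39) on normal diet. The normal diet value was 0.91 without the 5 highest barcodes and 0.89 with equal weight for each barcode, both within 2-fold. Smooth muscle was at 11.6, 17.2, 304 and 31.0 CPM, with a ratio of -3.29 (-3.37 to -3.22) on western and 0.57 (0.36 to 0.80) on normal diet. Endothelial barcodes were at 43.1, 64.9, 705 and 194 CPM and had a western diet ratio of -1.86 (-1.98 to -1.74), which was -1.19 among those that met no other rule. The 8 fibroblast markers summed to 1740, 2068, 9827 and 4072 CPM in the endothelial class with none at 0, high in the same library, and their part in the endothelial values of Timp1, Mmp3 and Mmp14 was not tested. The Col2a1/Cytl1/Ibsp class did not share the gap, at 428, 291, 713 and 626 CPM and -0.19 (-0.28 to -0.09). In macrophages the level was 2.09, 1.82, 219.9 and 86.9 CPM, and 1 barcode held 54 of the 61 UMIs of the LysM-DKO western diet library. The macrophage ratio of -1.33 (-1.74 to -0.96) was -6.01 (-11.90 to -4.11) once the 5 highest barcodes of each library were left out. Timp1 lies on the X chromosome inside Syn1, on the opposite strand, and diets differed in sex, while the genotype comparison within western diet did not.

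The smooth muscle class held barcodes of different states in different shares. Modulated smooth muscle barcodes, defined by Lum and Vcam1 summing to at least 3 UMIs, the genes of cells that leave the contractile state, were 4.77, 5.14, 41.3 and 6.04% of the class, with medians of 8702, 7030, 2035 and 8762 UMIs. Timp1 in them was at 77.3, 117, 711 and 284 CPM, and in other smooth muscle at 6.32, 8.24, 32.8 and 9.86 CPM. The western diet ratio was -1.32 (-1.42 to -1.23) in modulated and -1.73 (-1.91 to -1.55) in other barcodes, both smaller than over the whole class. Mmp3 followed the same split, at 75.3, 26.0, 431 and 149 CPM in modulated and 12.9, 14.5, 41.9 and 4.16 CPM in other barcodes, with ratios of -1.54 (-1.67 to -1.41) and -3.33 (-3.57 to -3.10). For Mmp2 the ratio was -0.37 (-0.57 to -0.18) in modulated barcodes and -1.29 (-1.48 to -1.11) in others. Mmp14 was within 2-fold in both, at -0.57 (-0.78 to -0.37) and -0.37 (-0.52 to -0.23). The summed level of 8 fibroblast markers in the smooth muscle class moved the same way, at 898, 1069, 3882 and 909 CPM with none at 0, Lum among them, and its part in these ratios was not tested.

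Thinned to 1000 UMIs, 1.14, 1.33, 14.6 and 1.57% of smooth muscle barcodes held a Timp1 UMI, beside 0.444, 1.51, 1.98 and 0% of lymphoid barcodes. The smooth muscle share was above the lymphoid share in both WT libraries and not in LysM-DKO on normal diet. In WT on normal diet the margin was small, beside 0.444% of only 450 lymphoid barcodes, and is not taken as beyond counting error. In the last library 0 of 23 lymphoid barcodes give no background usable for a share as low as 1.57%. Before thinning the shares were 4.07, 4.42, 26.9 and 8.15%, with median depths of 5318, 3676, 2218 and 6961 UMIs. In fibroblasts the thinned shares were 6.70, 10.5, 30.6 and 17.9%, above the lymphoid shares in every library. In the last library 0 of 23 lymphoid barcodes allow up to 13.0% by the limit of 3 counts. The 17.9% lies above that limit, but the background there is known only loosely. The lymphoid Timp1 level itself was 2.99, 7.70, 77.6 and 0 CPM, and 1 barcode held 78 of the 103 UMIs behind the third value.

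**Figure D3:**
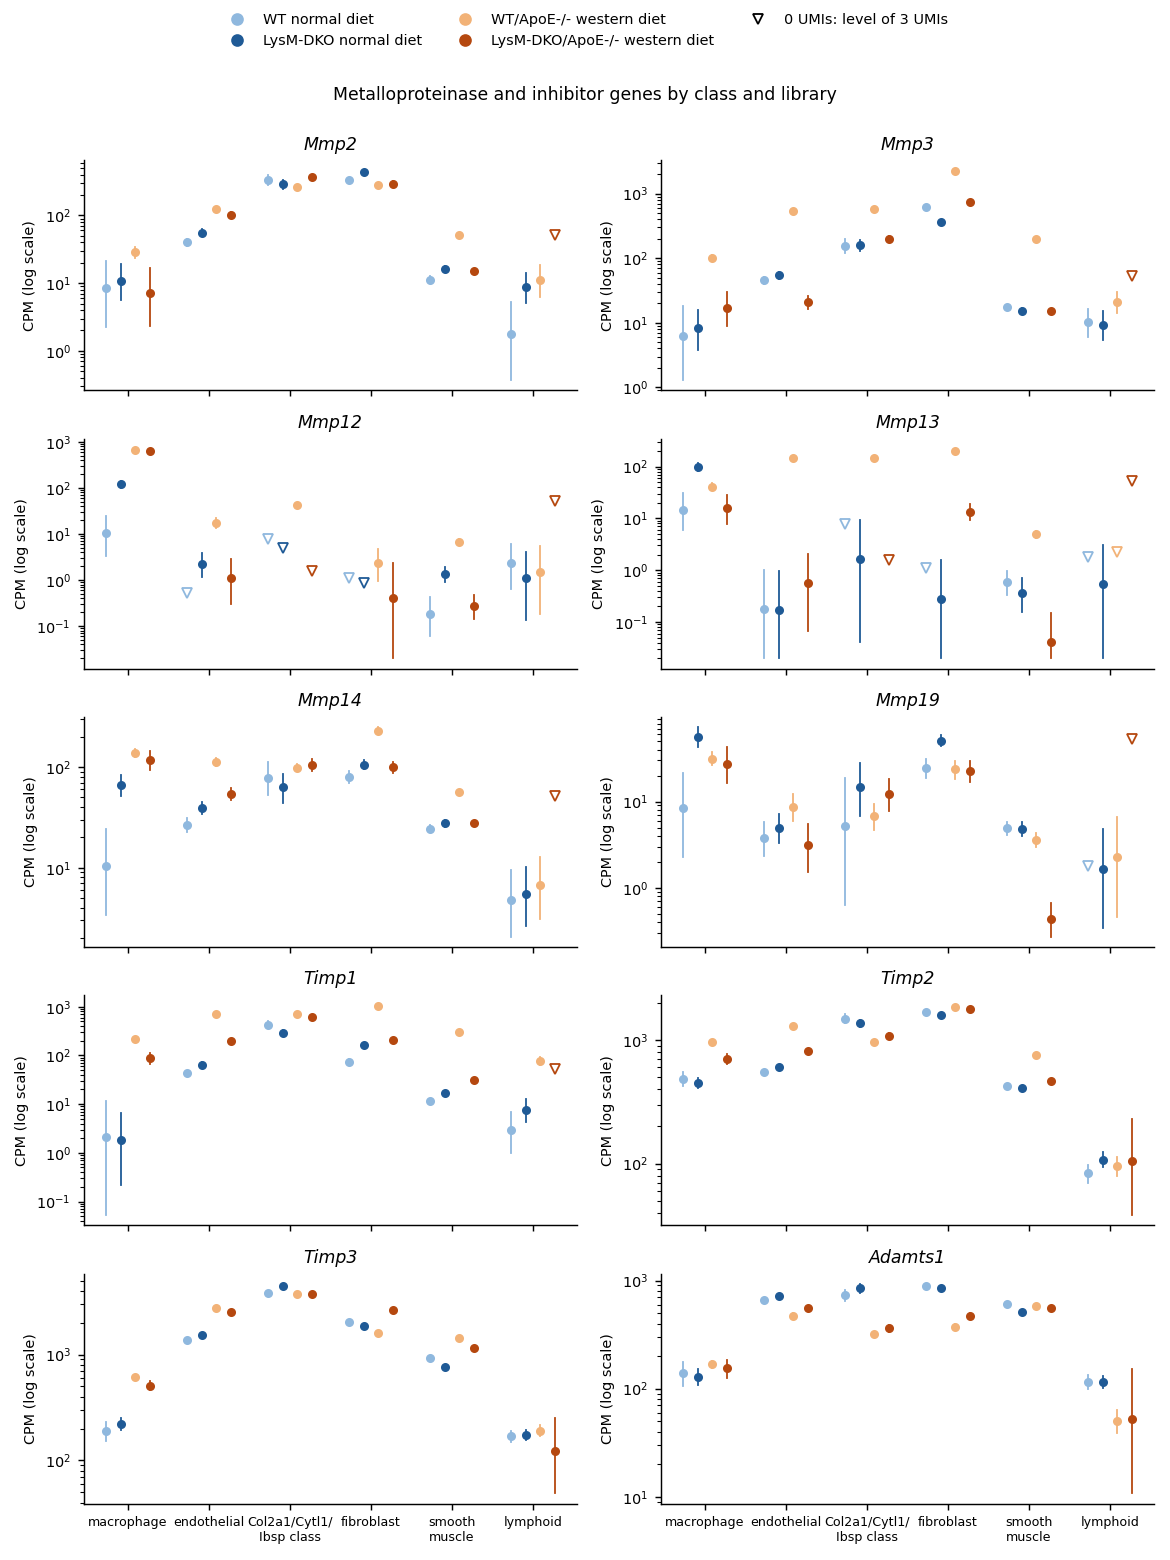
CPM (log axis) of the 10 genes, 1 panel each, in 5 classes and in lymphoid barcodes as background, with 1 point per library and 95% Poisson counting intervals, and open triangles where a class held 0 UMIs, drawn at the level of 3 UMIs. In fibroblasts Timp2 lies within 1608 to 1848 CPM in all 4 libraries, whereas for Mmp3, Mmp13 and Timp1 the WT/ApoE-/- library is the highest in fibroblasts, endothelial barcodes and smooth muscle.

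Timp2 (ENSMUSG00000017466, chromosome 11, 118301069 to 118355740, minus strand), the inhibitor that also carries pro-Mmp2 to Mmp14, was the steadiest member in fibroblasts, at 1692, 1608, 1848 and 1785 CPM and a western diet ratio of -0.05 (-0.11 to 0.01). Smooth muscle held 422, 411, 753 and 467 CPM, with WT/ApoE-/- highest and a ratio of -0.69 (-0.71 to -0.66), within 2-fold. In endothelial barcodes, at 552, 601, 1303 and 808 CPM, the ratio was -0.69 (-0.76 to -0.62). Timp3 (ENSMUSG00000020044, chromosome 10, 86300372 to 86349506, plus strand) is the inhibitor that binds to the matrix and also blocks ADAM and ADAMTS proteases. It was at 3821, 4467, 3757 and 3737 CPM in the Col2a1/Cytl1/Ibsp class, and endothelial barcodes had 1368, 1528, 2732 and 2504 CPM. In fibroblasts, at 2023, 1861, 1615 and 2662 CPM, it had the highest fibroblast ratio of the 9 measured members on western diet, at 0.72 (0.67 to 0.78). Its macrophage level was 189, 223, 612 and 510.1 CPM, where 1 barcode held 261 of 358 UMIs in LysM-DKO/ApoE-/-. By class sums, Timp2 and Timp3 together had 0 of 10 genotype pairs past 2-fold on western diet, and Timp1 had 4 of 5. Over all genes in the same classes 4.59% were lower and 2% higher, so 0 of 10 is near that share and is not a result about Timp2 and Timp3. The Timp3 macrophage pair, at -0.26 (-0.43 to -0.10), was not uniform within the class. Its western diet ratio was 1.89 (1.68 to 2.10) in foamy, -2.28 (-3.15 to -1.53) in resident-type and -2.38 (-2.84 to -1.98) in other macrophages. The 0 of 10 is therefore not taken as independent of that 1 barcode.

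**Figure D4:**
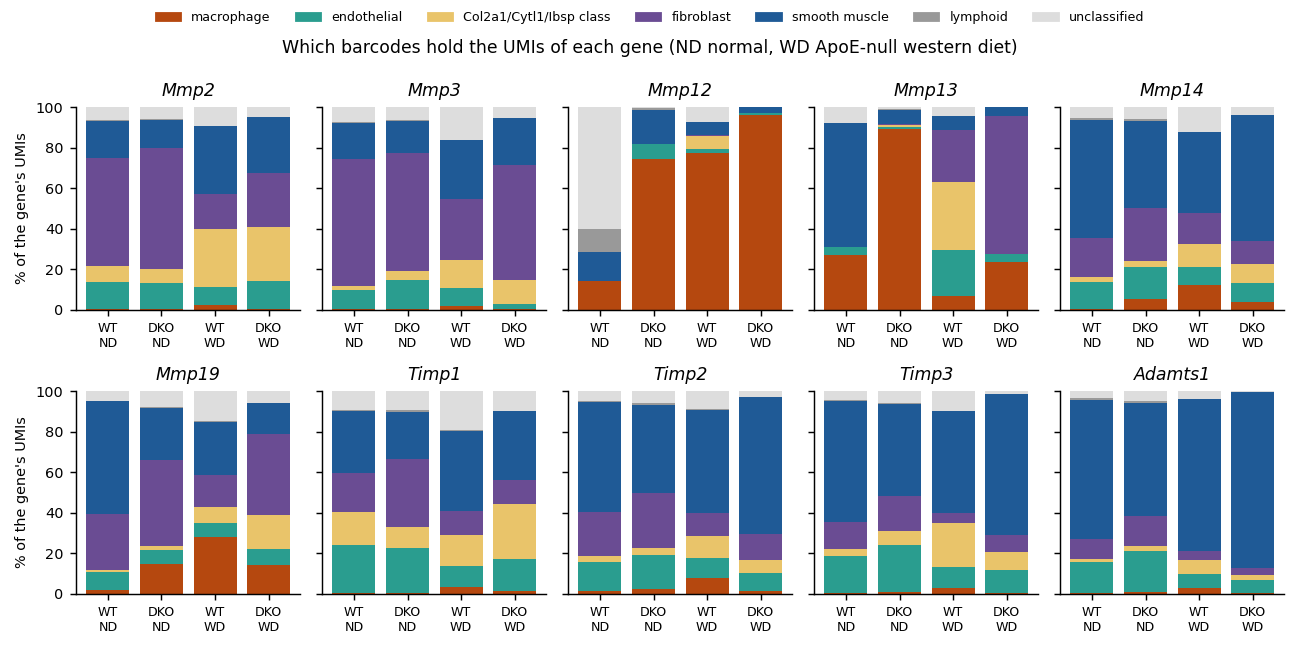
Stacked percent of each gene's UMIs by class in each library. Macrophages hold 77.2% and 96.1% of Mmp12 UMIs in the western diet libraries, fibroblasts hold 30.0% and 56.5% of Mmp3 there, and smooth muscle holds 75.1% and 86.6% of Adamts1.

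Other genes of the same system were read from lists. The western diet genotype counts below stand beside the share of all genes in the class. Lower were 6.33% in macrophages, 2.56% in endothelial barcodes, 2.82% in the Col2a1/Cytl1/Ibsp class, 2.49% in fibroblasts and 7.55% in smooth muscle. Higher were 2.66, 1.91, 2.96, 1.65 and 1.26% in the same order. A count of 0 or 1 gene is therefore not read as a result. Among 16 further MMPs, 7 were measured in smooth muscle on western diet and 0 passed 2-fold between genotypes, and 1 of 3 was lower in the Col2a1/Cytl1/Ibsp class (Mmp17, at -1.22). Of 17 further ADAMTS genes 11 were measured in smooth muscle and 0 passed 2-fold, while 2 of 3 were lower in macrophages (Adamts5 at -2.20 and Adamts2 at -1.73) and 1 of 8 was higher in the Col2a1/Cytl1/Ibsp class (Adamts4 at 1.46). Of 7 other inhibitors 5 were measured in each class, and 2 were lower in macrophages, 1 in fibroblasts, 1 in the Col2a1/Cytl1/Ibsp class and 0 in endothelial barcodes and smooth muscle. Serpine2, which blocks serine proteases, had a fibroblast ratio of -1.49 (-1.59 to -1.40). Timp4, the remaining TIMP, was at -1.18 (-1.80 to -0.64) in the Col2a1/Cytl1/Ibsp class. Of 9 ADAM proteases, 2 of 8 measured were lower in smooth muscle (Adam8 at -2.32 and Adam12 at -1.80) and 1 of 6 was higher in fibroblasts (Adam33 at 1.55). The list of activators and partners had 6 of 14 genes lower in smooth muscle, 3 of 13 in endothelial barcodes, 2 of 14 in the Col2a1/Cytl1/Ibsp class and 1 each of 14 in macrophages and of 12 in fibroblasts, and 0 higher in any. Its median ratio in smooth muscle was -0.37, against -0.01 over all genes measured there. Cathepsin K (Ctsk), a collagen-cutting cysteine protease, was at 34.0 and 9.85 CPM in smooth muscle, a ratio of -1.79 (-1.95 to -1.63). Galectin-3 (Lgals3) had -1.96 (-2.05 to -1.87) in smooth muscle and -1.98 (-2.22 to -1.76) in fibroblasts.

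Of 12 substrates, 6 were lower in LysM-DKO/ApoE-/- macrophages, 3 in fibroblasts, 2 in smooth muscle and 1 each in the endothelial and Col2a1/Cytl1/Ibsp classes, with a median ratio of -0.48 in fibroblasts against 0.04 over all genes. The shares of all genes that were lower are those given for the lists above. Osteopontin (Spp1), a secreted matrix protein that several MMPs cut, was lower in all 5 classes. It was at 10769 CPM in WT and 1644 CPM in LysM-DKO in macrophages, a ratio of -2.71 (-2.80 to -2.63), and in smooth muscle the ratio was -4.55 (-4.61 to -4.50). Collagen III (Col3a1) had a fibroblast ratio of -1.16 (-1.21 to -1.12). Its macrophage ratio was -2.53 (-2.83 to -2.26), in the class where the fibroblast markers given beside Mmp2 were also high in WT/ApoE-/-, and their part was not tested. Against the WT normal diet library, the WT/ApoE-/- library was at least 2-fold higher in 11 of 12 substrates in macrophages, 8 in endothelial barcodes, 7 in the Col2a1/Cytl1/Ibsp class, 8 in fibroblasts and 5 in smooth muscle. Of all genes 20.1, 4.5, 11.5, 7.52 and 4.59% were higher, in the same order of classes. Fibronectin (Fn1) was higher in fibroblasts by 3.63 (3.54 to 3.71) and in smooth muscle by 1.74 (1.72 to 1.76). Mmp9 (gelatinase B) went the other way in macrophages, at 134 CPM on normal and 3.07 CPM on western diet in WT, a ratio of -5.40 (-6.48 to -4.55).

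Over the 20 sums of a class in a library, which share depth and libraries, likeness was read as Pearson's r of log2(CPM + 10) among 13670 genes with at least 200 UMIs, as a description with no p. The genes most like Mmp12 were Itgax (0.96), Abcg1 (0.95) and Cd72 (0.94). Those most like Timp1 were Cx3cl1 (0.95), Ltbp2 (0.94) and Lum (0.93). Mmp2 lay nearest to Gdf10 (0.98), Dcn (0.97) and Cebpd (0.96), and Mmp3 nearest to Ctsk (0.94), H6pd (0.93) and Matn2 (0.92). Mmp14 was nearest to Plbd2 (0.92), Man2b2 (0.91) and Naglu (0.91), and Mmp19 to Antxr2 (0.89), Dynlt1f (0.88) and Hpse (0.84). Mmp13 had no close neighbour, with Bst1 (0.83) first. The gene nearest to Timp3 was Syn3 (0.97), which overlaps it on the opposite strand. Whether reads of Timp3 were counted for Syn3 was not tested. Timp2 was nearest to Shc2 (0.97) and Adamts1 to Rhoj (0.94). Among the 10 members the highest values joined Mmp2 with Timp2 (0.89) and Mmp3 with Timp2 (0.89), and the lowest joined Mmp12 with Adamts1 (-0.78).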

How the data were processed

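The authors deposited UMI counts per feature and barcode as whole numbers, 1 matrix per library, made with Cell Ranger 6.0.1 (normal diet) and 6.1.2 (western diet) per the file headers. The submitters' processing notes list Cell Ranger 6.1.2, Seurat 4.1.0 and build mm10. Cell-calling parameters and the annotation release are not given in the sources used here.

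Counts were summed per class and library and scaled to CPM, that is, per 1000000 of all UMIs of that class. Ratios are log2 with 0.5 UMIs added, with exact conditional binomial 95% intervals, and levels have exact Poisson intervals. Kept UMIs totalled 37789023 to 56888546 per library. Intervals and floors cover counting error only. A ratio counted as past 2-fold needed at least 50 UMIs over both libraries and at least 20 barcodes in each. Folds against 0 UMIs use a floor of 3 UMIs. The exact binomial method gave intervals of shares. UMIs count 3' ends, so no length scaling was applied. Lymphoid barcodes met no class rule and had at least 3 UMIs of Cd3e, Cd3d, Cd3g, Cd79a, Cd79b and Ms4a1. No doublet caller was run, so barcodes that met several rules stayed in the first class and were left out as an alternative. The scripts were tested on simulated data (scipy 1.17.1 and numpy 2.4.6 under Python 3.11.15).

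The 10 genes, the lists and the rules were chosen with earlier results of these data known. From each list, up to 4 genes a class were eligible to be named, by highest CPM or largest ratio past 2-fold, and like genes were the 3 highest r. Alternatives were the UMI and mitochondrial limits, the low-count limit, doubled class minimums, 1-rule barcodes, median ratio scaling, equal barcode weight and no thinning.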

Additional observations from a re-analysis of the deposited data

Results flagged for a closer look

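The genotype ratio had opposite signs on the 2 diets, with both 95% counting intervals apart from 0, in 16 pairs of a gene and a class, and the difference between diets was not tested because each group is 1 library. All values are log2 of LysM-DKO over WT. Timp1 was the pair with the widest turn in fibroblasts, at 1.15 on normal and -2.27 on western diet, the first within 2-fold without the 5 highest barcodes (0.91) and with equal weight (0.89). In smooth muscle it was 0.57 on normal and -3.29 on western diet, and in endothelial barcodes 0.59 on normal and -1.86 on western diet. Mmp14, the membrane-type protease, turned in fibroblasts (0.40 on normal and -1.20 on western diet), smooth muscle (0.17 on normal and -1.03 on western diet) and endothelial barcodes (0.55 on normal and -1.06 on western diet).

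Mmp2 was 0.50 on normal and -1.78 on western diet in smooth muscle and 0.48 on normal and -0.27 on western diet in endothelial barcodes. Mmp3 turned in endothelial barcodes, 0.26 on normal and -4.67 on western diet. Mmp13 turned in macrophages, 2.66 on normal and -1.33 on western diet, where few barcodes held most UMIs. Mmp12 was 2.74 on normal and -4.60 on western diet in smooth muscle, from 5 and 30 UMIs on normal diet. In endothelial barcodes Mmp12 was 4.70 on normal and -3.81 on western diet, where the normal diet value compares 0 with 13 UMIs, rests on the 0.5 UMIs added and is no bound.

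Smaller turns, within 2-fold on both diets, were those of Timp2 (0.12 on normal and -0.69 on western diet) and Timp3 (0.16 on normal and -0.13 on western diet) in endothelial barcodes. In fibroblasts they were Timp3 (-0.12 on normal and 0.72 on western diet) and Adamts1 (-0.08 on normal and 0.33 on western diet), both toward higher values in LysM-DKO on western diet.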

How the results depend on the processing

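With 1 library per group, counting error is the measured part of the error and no replicate could be left out. No paired analysis was possible because each group is 1 library. Of the 23 western diet genotype pairs past 2-fold, 23 stayed past it with limits of 500 or 2000 UMIs, 20% mitochondrial UMIs or median ratio scaling, and 20 each with doubled class minimums, with equal weight for each barcode or without the 5 highest barcodes (added after seeing the data). With only barcodes that match 1 class rule 17 stayed, while 4 fell under 50 UMIs. Of the 31 WT diet pairs 22 to 31 stayed, of the 12 LysM-DKO diet pairs 5 to 12, and of the 6 normal diet genotype pairs 0 to 6.

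The count of higher normal diet genotype pairs was 6, and 1 with only barcodes that match 1 class rule and 3 without the 5 highest barcodes (none of these 3 among the 6), and that of lower pairs was 0, and 1 with 1-rule barcodes. The 0 higher western diet genotype pairs became 1 with at least 2000 UMIs and 1 with equal weight. The 2 lower WT diet pairs became 4 with 1-rule barcodes and 1 over 4 classes (added after seeing the data), and the 6 lower LysM-DKO diet pairs became 3 with equal weight.

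The sign turned in few ratios. With equal weight the western diet genotype ratio of Mmp13 in macrophages was 0.25 in place of -1.33. The LysM-DKO diet ratio of Timp3 in macrophages, 1.20, was -2.13 with 1-rule barcodes, -0.65 with equal weight and -1.11 without the 5 highest barcodes. With 1-rule barcodes the LysM-DKO diet ratio of Mmp19 in macrophages was 0.02 (-1.05 to 1.12) in place of -1.03. The WT diet ratio of Mmp19 in endothelial barcodes was -1.53 (-7.57 to 1.39) in place of 1.19. The LysM-DKO diet ratio of Mmp3 in endothelial barcodes was 2.38 (1.15 to 3.68) in place of -1.37. Each of these 1-rule values of Mmp19 and Mmp3 came from under 50 UMIs. The cause was not tested.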

Other observations

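Barcodes that met no class rule also carried these genes. Those with at least 3 UMIs of Lum and Vcam1 numbered 95, 125, 1058 and 80, with median depths of 2295, 2221, 1355 and 2220 UMIs. Timp1 in them was at 227, 316, 1849 and 1342 CPM and Mmp3 at 435, 251, 1338 and 539 CPM. The western diet genotype ratio was -0.46 (-0.61 to -0.32) for Timp1 and -1.31 (-1.55 to -1.08) for Mmp3.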
